A study of Mus musculus with 71 samples.

Results

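*Pax5* is the transcription factor that commits early lymphoid progenitors to the B cell lineage. It binds DNA through its N-terminal paired domain, activates genes of the B cell program and represses genes of other lineages. The C-terminal part of the protein holds a transactivation domain, in the study called CRD1 with a small extension, and an inhibitory domain, of which CRD2 is a shortened form. Here, RNA-sequencing profiles of *Pax5* ∆CRD1/- pro-B cells were compared directly with those of *Pax5* ∆CRD2/- pro-B cells. The question was which genes depended on which of these C-terminal regions when the mutant allele was the only source of *Pax5*. The comparison rests on 4 of the 71 samples of the series, 2 per genotype, and 48 of the 71 have an expression table. It covered the 12566 genes, of 25579 in the tables, that exceeded 1 TPM (transcripts scaled to the library total, which also corrects for gene length) in at least 1 of these 4 samples.

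All 4 samples were pro-B cells sorted ex vivo from the bone marrow of C57BL/6 mice. The gate took cells positive for markers that include B220 and *Kit* and negative for CD2, IgM and IgD, and both genotypes carried a germline null allele of *Pax5* opposite the edited allele. Each edited allele came from CRISPR/Cas9 mutagenesis in zygotes, so it is present in all cells of the mouse and not only in B cells. Pro-B cells homozygous for the ∆OP, ∆HD or ∆OP,HD alleles, which lack the octapeptide, the partial homeodomain or both, and 2 of the *Pax5* +/+ samples were in the same fit, where they added 8 samples to the estimate of the spread behind every p-value. Other genotypes served for comparison: *Pax5* +/+ pro-B cells, pro-B cells homozygous for either deletion, *Pax5* ∆CRD1,2/- cells lacking both regions, and progenitors made Pax5-deficient by Vav-Cre (Vav-Cre *Pax5* fl/fl), a Cre line active throughout the blood system. The gate of the last 2 took lineage-negative cells with B220, Ly6D and high *Kit*. The ∆CRD1/- mice were 3 to 5 weeks old at the sort, and the ∆CRD2/- and *Pax5* +/+ cells were sorted in the same way. The labels do not say whether the 2 samples of a genotype came from separate mice, so the p-values measure the spread between these samples.

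In the GRCm38 genome the *Pax5* gene lies on the minus strand at chr4:44524757-44710487. The ∆CRD1 allele lost exon 8 (chr4:44570002-44570103) and exon 9 (chr4:44537420-44537506), which together hold 189 coding bases, or 63 of the 391 codons, and whose removal keeps the reading frame. It was cut in intron 7 at chr4:44570468-44570487 and in intron 9 at chr4:44537066-44537085, positions 33388 bases apart. The ∆CRD2 allele was made by a single cut at chr4:44531557-44531576 in the coding part of exon 10, which is the last exon and holds 74 coding bases. The guide target sites are shown because they define what each allele lacks, with the PAM in capitals:
sgRNA-3, intron 7, minus strand: agaaccagtcagaagcaacgGGG
sgRNA-4, intron 9, plus strand: gacatcattaatcaatcactGGG
sgRNA-5, exon 10, plus strand: tgcagggctgtaatagtatgGGG

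The ∆CRD2 repair template replaced 3 bases of exon 10 by 7, shown here in capitals on the coding strand from chr4:44531572 down to 44531570. Read in frame, the edited sequence meets its first stop codon at codon 370 in place of the end at codon 391:
Reference exon 10: gctccccataCTAttacagcc
Repair template: gctccccataGTAAGCTttacagcc

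The sorted cells carried the markers of pro-B cells in both genotypes. *Dntt*, the terminal transferase that adds nucleotides to V(D)J joints, stood at 3918 and 4187 TPM in the ∆CRD1/- samples and 4215 and 4840.1 TPM in the ∆CRD2/- samples. *Igll1*, the surrogate light chain, stood at 5614 and 6251 TPM and 5407 and 6720.1 TPM. Of the 11 pro-B markers, 8 gave no adjusted p under 0.05 in limma. *Kit*, which was also used for the sort, and *Pax5* were higher in ∆CRD1/- cells. The CD3 genes that define T cells did not exceed the 1 TPM limit, and *Cd2*, which was gated out, was at 0 in both ∆CRD1/- samples. The 4 libraries held 30435592 to 33309666 reads, recovered from the TPM values, and the median log2 difference over all genes tested was -0.02. No adjusted p was under 0.05 in limma for any of the 5 sex-linked genes, of which 0 had an unadjusted p under 0.05 and 0 were called by edgeR or DESeq2.

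One library stood apart. The summed level of 10 granulocyte markers was 16899 TPM in ∆CRD2/- replicate 1, against 1116 TPM in replicate 2, 174 and 380 TPM in the ∆CRD1/- samples, and 888 and 7022 TPM in *Pax5* +/+ replicates 3 and 4. *S100a9* alone stood at 6632 and 416 TPM in the ∆CRD2/- samples and 72.1 and 142 TPM in the ∆CRD1/- samples. All 10 granulocyte markers had negative log2 differences (median -4.06), but 0 of 10 passed the adjusted threshold in limma, 6 had an unadjusted p under 0.05, and edgeR and DESeq2 called 5 and 10 of them lower. Without ∆CRD2/- replicate 1, limma called 0 of them, and 0 had an unadjusted p under 0.05. The same library held the highest summed levels of macrophage markers (110 TPM against 32.1 to 46.0 TPM in the other 3, with 1 of 10, *C1qb*, called lower, and not without this library, where its adjusted p was 0.179) and of erythroid markers (267 TPM against 106 to 211 TPM, with 0 of 5 called by limma, 2 at an unadjusted p under 0.05, 0 by edgeR and 1 by DESeq2). For genes described below with their level in each sample that lose their call without this library, the adjusted p without it is given beside them, and the part of the granulocyte RNA in those differences was not tested. For macrophage and erythroid markers, *Pax5* +/+ replicates 3 and 4 both lay above this library, at 112 and 137 TPM and at 328 and 483 TPM. In bulk samples, fewer cells of a type and less RNA per cell cannot be told apart.

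*Pax5* mRNA itself, counted over the gene and therefore without regard to which exons or which allele the reads came from, was higher in ∆CRD1/- cells. It stood at 451 and 410.1 TPM in the ∆CRD1/- samples and 241 and 304 TPM in the ∆CRD2/- samples, so the genotypes did not overlap. *Pax5* +/+ pro-B cells had 342 and 359.7 TPM and ∆CRD1,2/- cells 416 and 546 TPM. The log2 difference of 0.67 ± 0.12 (SE), adjusted p = 0.00898 came from limma, fitted on log2(TPM + 0.1) across 12 samples of the same read length and gate. The difference kept its direction but lost its call without ∆CRD1/- replicate 1 (0.60, adjusted p = 0.108) and without ∆CRD2/- replicate 1 (0.50, adjusted p = 0.0502).

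Deletion of CRD1 and deletion of CRD2 left pro-B cells that differed at 998 of 12566 genes (7.94%) at an adjusted p under 0.05. Of these, 656 (5.22%) were lower and 342 (2.72%) were higher in ∆CRD1/- cells. The lower genes held most of the large differences: 162 of the lower and 41 of the higher genes differed more than 3-fold, whereas 139 and 132 differed less than 1.5-fold. The study's stricter thresholds also asked for more than 3-fold and for either genotype to average over 5 TPM, and they set aside immunoglobulin and histone genes. T cell receptor genes were set aside here as well. Under them 109 genes (0.867%) remained. Of them, 76 (0.605%) were lower and 33 (0.263%) were higher in ∆CRD1/- cells. The 2 samples of one genotype did not overlap with those of the other at any of the 109 genes. These genes were chosen for a difference between the same samples, and the share over all genes was not computed. Non-overlap at these and other called genes is therefore description and not separate support. Samples within a genotype differed less in ∆CRD1/- cells than in ∆CRD2/- cells. The SD of the log2 difference between the 2 samples was 0.27 and 0.41, over the 9708 genes averaging above 5 TPM.

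The counts changed with the libraries included. With 1 of the 4 libraries left out, the count past the thresholds was 68 (without ∆CRD1/- replicate 1), 92 (without ∆CRD1/- replicate 2), 98 (without ∆CRD2/- replicate 1, the library high in granulocyte markers) and 110 (without ∆CRD2/- replicate 2). Of the 109 genes, 64, 83, 83 and 86 stayed past the thresholds in these 4 fits, and none changed direction. The wider count of 998 was 266, 490, 689 (5.62% of the 12262 genes then tested) and 549 in the same order. These fits assume that the lone sample of a genotype varies like the other groups. The count tests on recovered reads called more genes, with 1235 of 12453 (9.92%) by edgeR and 1735 (13.9%) by DESeq2, and 107 and 108 of the 109 genes were past the thresholds there. Besides the 109 genes, 8 of 212 immunoglobulin genes passed the thresholds before their removal, 5 lower and 3 higher, all of them heavy chain V segments, whose reads can be shared between near-identical segments. 

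**Figure D1:**
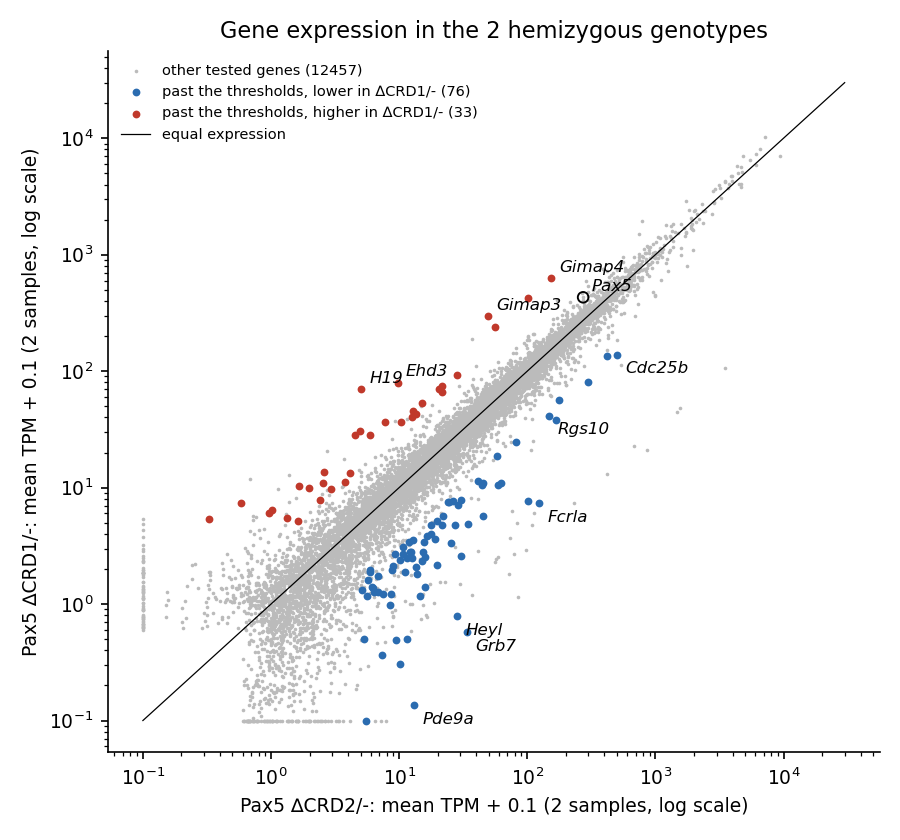
Mean expression of the 12566 genes in the 2 ∆CRD2/- samples (x axis, TPM + 0.1, log scale) and the 2 ∆CRD1/- samples (y axis, TPM + 0.1, log scale). Blue points are the 76 genes past the thresholds that were lower in ∆CRD1/- cells, red points the 33 that were higher, grey points the other genes, and a black ring marks Pax5, which was called but differed less than 3-fold.

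The largest losses in ∆CRD1/- cells were of genes close to silent there and readily measured in ∆CRD2/- cells. *Pde9a*, a phosphodiesterase that degrades cyclic GMP, stood at 0 and 0.07098 TPM in the ∆CRD1/- samples and 13.1 and 12.7 TPM in the ∆CRD2/- samples, on 0 and 2 reads against 343 and 353 reads (log2 difference of -6.64 ± 0.24 (SE), adjusted p = 8.51e-07). *Grb7*, an SH2 domain adaptor protein, stood at 0.586 and 0.367 TPM against 32.3 and 34.8 TPM (log2 difference of -5.89 ± 0.27 (SE), adjusted p = 3.42e-06). *Heyl*, a basic helix-loop-helix repressor of the Hes and Hey family, stood at 0.587 and 0.792 TPM against 25.2 and 31.2 TPM (log2 difference of -5.17 ± 0.22 (SE), adjusted p = 2.29e-06). In each case the samples of the genotypes were far apart, with a difference many times the gap within a genotype.

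*Fcrla*, an intracellular Fc receptor-like protein of B cells, was the most abundant gene of this group. It stood at 7.79 and 6.79 TPM in the ∆CRD1/- samples and at 114 and 135 TPM in the ∆CRD2/- samples (log2 difference of -4.07 ± 0.15 (SE), adjusted p = 8.51e-07), and the latter overlapped with the 115 and 146 TPM of *Pax5* +/+ cells. *Plxdc1*, a plexin domain membrane protein, followed with 6.31 and 8.75 TPM against 86.01 and 118 TPM (log2 difference of -3.74 ± 0.22 (SE), adjusted p = 1.78e-05). The other genes with large losses included the R-spondin receptor *Lgr5* (0.251 and 0.5598 TPM against 9.40 and 13.4 TPM), *Dkk3*, a secreted protein of the Dickkopf family (0.268 and 0.265 TPM against 6.19 and 8.22 TPM), the calcium channel subunit *Cacna1e* (0.967 and 1.20 TPM against 12.95 and 15.9 TPM) and *Rsph1*, a component of ciliary radial spokes (1.14 and 3.79 TPM against 34.9 and 25.1 TPM). With each of the 4 libraries left out in turn, all 9 of these genes kept their call, with adjusted p values up to 0.0109.

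3 of the 12 genes with the largest losses were not as firm. *Anxa3*, a calcium-dependent phospholipid-binding protein, stood at 0.0926 and 0.321 TPM in ∆CRD1/- cells and 18.6 and 1.67 TPM in ∆CRD2/- cells, and most of the difference sat in the library high in granulocyte markers. Without that library its log2 difference was -2.64 with an adjusted p = 0.207, against -4.34 and 0.0427 with all samples, and its call was also lost without either ∆CRD1/- sample (adjusted p up to 0.305). *Cox6a2*, the muscle form of a cytochrome c oxidase subunit, went from 0.112 and 0.667 TPM to 15.6 and 3.04 TPM and lost its call whichever of the 4 libraries was left out (adjusted p = 0.204 without that library, and up to 0.327 without ∆CRD1/- replicate 1). *Mir7237*, a miRNA precursor, was at 0 in both ∆CRD1/- samples and at 5.02 and 5.88 TPM, from 4 and 5 reads, in the ∆CRD2/- samples. In homozygous cells its log2 difference was 3.95, in the other direction and not called (limma adjusted p = 0.6). In the hemizygous contrast the count tests did not call it either (adjusted p = 0.319 in edgeR and 0.662 in DESeq2). The next value for *Mir7237* takes the 4 and 5 reads of the ∆CRD2/- samples as exact. On these few reads it was at least 3.11-fold lower in ∆CRD1/- cells, taking 3 reads over both ∆CRD1/- libraries as the limit that a count of 0 allows, and its call was lost whichever of the 4 libraries was left out (adjusted p up to 0.0933, and 0.0606 without the library high in granulocyte markers).

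Among the genes that were higher in ∆CRD1/- cells, *H19*, the imprinted maternally expressed long noncoding RNA, stood at 78.1 and 61.9 TPM against 4.74 and 5.19 TPM in ∆CRD2/- cells (log2 difference of 3.78 ± 0.35 (SE), adjusted p = 0.000276). *Ehd3*, an endocytic recycling protein, stood at 74.1 and 85.2 TPM against 10.1 and 9.18 TPM (log2 difference of 3.04 ± 0.22 (SE), adjusted p = 6.64e-05). *Gimap3*, a GTPase of the immunity-associated family, stood at 303 and 288 TPM against 47.3 and 51.95 TPM (log2 difference of 2.57 ± 0.12 (SE), adjusted p = 4.26e-06). All 3 were lowest in *Pax5* +/+ cells, at 1.72 and 0.767 TPM, 3.52 and 5.47 TPM and 13.5 and 17.2 TPM, so ∆CRD2/- cells lay between wild-type and ∆CRD1/- cells.

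Weaker in level were *ccdc198* (6.02 and 4.52 TPM against 0.271 and 0.191 TPM, log2 difference 4.02), the semaphorin *Sema6d* (7.16 and 7.43 TPM against 0.582 and 0.391 TPM, 3.68), the neuropeptide precursor *Qrfp* (6.22 and 6.34 TPM against 0.7299 and 1.09 TPM, 2.68) and *Rnase10* (6.97 and 4.97 TPM against 1.09 and 0.623 TPM, 2.69). *Pde8a*, a cyclic AMP phosphodiesterase, and the chemokine *Ccl9* reached 34.2 and 27.0 TPM and 30.7 and 25.3 TPM in the ∆CRD1/- samples, against 6.66 and 2.99 TPM and 5.68 and 3.16 TPM. The list of the 12 largest gains was completed by *Syndig1l* (log2 difference 2.65), *Stum* (2.55) and *Fam78b* (2.45). *H19*, *Ehd3*, *Gimap3*, *Sema6d*, *Pde8a* and *Syndig1l* kept their call whichever library was left out (adjusted p up to 0.0459). The calls of *ccdc198* and *Fam78b* were lost without ∆CRD1/- replicate 1 (adjusted p = 0.0942 and 0.0591), those of *Qrfp* and *Stum* without either ∆CRD1/- sample (up to 0.069 and 0.133), and those of *Rnase10* and *Ccl9* without any 1 of the 4 (up to 0.197 and 0.214, and 0.0523 and 0.0624 without ∆CRD2/- replicate 1).

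**Figure D2:**
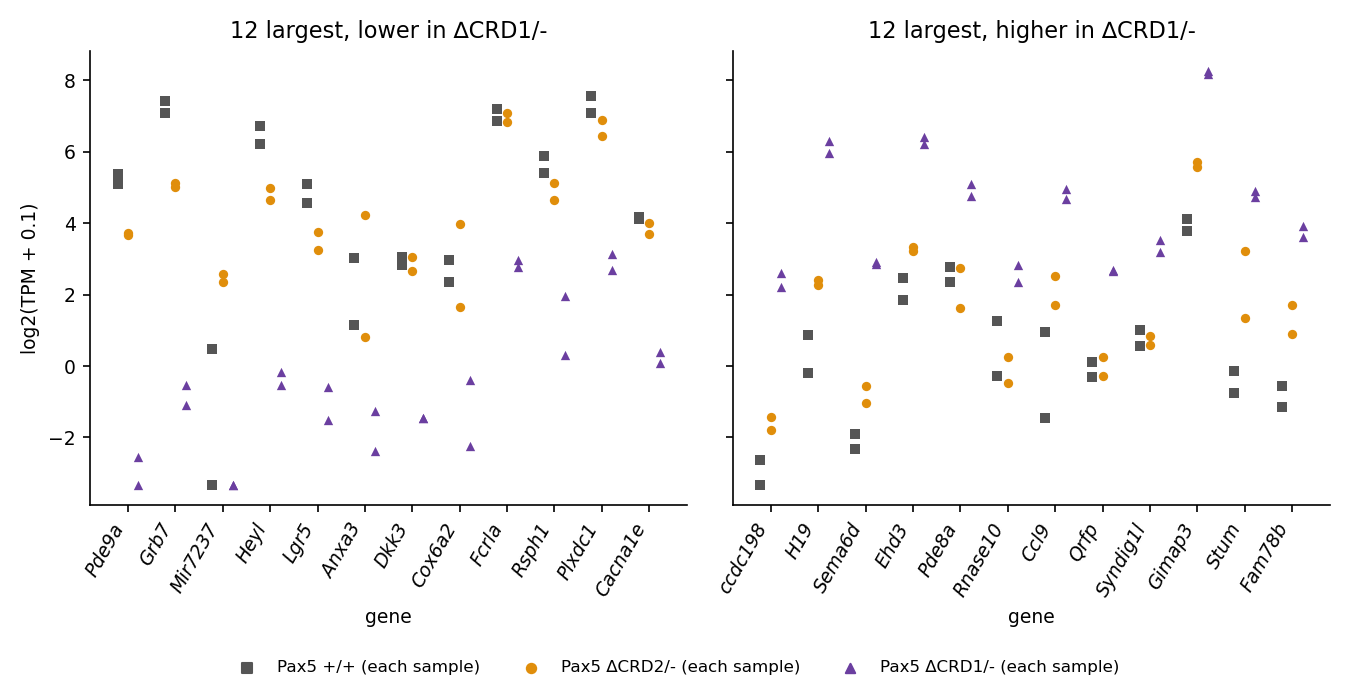
Expression of the 12 genes with the largest losses and the 12 with the largest gains in ∆CRD1/- relative to ∆CRD2/- cells, on a log2(TPM + 0.1) scale. Each symbol is 1 sample (squares Pax5 +/+, circles ∆CRD2/-, triangles ∆CRD1/-), and for all 24 genes the triangles lie on one side of the circles. The genes were chosen for the size of this difference.

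The pre-B cell receptor joins the immunoglobulin heavy chain to the surrogate light chain and signals through *Cd79a* and *Cd79b* to adaptors and kinases. Of 24 genes of the receptor and its signalling, 7 (29.2%) were lower and 1 (4.17%), *Plcg2*, was higher in ∆CRD1/- cells, with a median log2 difference of -0.12 against -0.02 over all genes tested. Over all genes tested 5.22% were lower and 2.72% were higher, which is the background for the shares of this and the other groups. The surrogate light chain gene *Vpreb1* was at 2828 and 2712 TPM against 2627 and 3067 TPM, with overlapping samples, and *Cd79a* at 2261 and 2232 TPM against 2581 and 2906 TPM (log2 difference -0.29, adjusted p = 0.208). The lower genes lay downstream of the receptor or on its coreceptors. Besides *Fcrla*, the adaptor *Lcp2* fell from 17.7 and 13.1 TPM in ∆CRD2/- to 2.41 and 4.17 TPM in ∆CRD1/- cells (log2 difference of -2.23 ± 0.27 (SE), adjusted p = 0.00114). *Pik3ap1*, the adaptor BCAP that links the receptor to phosphoinositide 3-kinase, was at 147 and 156 TPM against 376 and 457 TPM (log2 difference of -1.45 ± 0.10 (SE), adjusted p = 5.44e-05).

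The inhibitory coreceptor *Cd72* stood at 65.8 and 91.5 TPM against 155 and 200.1 TPM (log2 difference of -1.18 ± 0.17 (SE), adjusted p = 0.00305). *Fcrla*, *Lcp2*, *Pik3ap1* and *Cd72* kept their call without any 1 of the 4 libraries. In each of them the 2 ∆CRD1/- samples lay below both ∆CRD2/- samples. The group had 7 lower calls without ∆CRD2/- replicate 1, and *Plcg2* was then not called.

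Of 21 transcription factors of the B lineage, 9 (42.9%, against 5.22% of all genes) were lower in ∆CRD1/- cells, 3 of them past the thresholds, and only *Pax5* itself was higher (median -0.39). *Ikzf3*, which encodes Aiolos, a zinc-finger factor of the Ikaros family, stood at 1.48 and 1.14 TPM against 12.5 and 18.9 TPM (log2 difference of -3.47 ± 0.29 (SE), adjusted p = 0.000176). *Bach2*, a repressor that keeps B cells from plasma cell fate, stood at 18.1 and 19.2 TPM against 47.9 and 68.5 TPM (log2 difference of -1.61 ± 0.19 (SE), adjusted p = 0.000866). *Id3*, an inhibitor of E proteins, stood at 130.0 and 141 TPM against 359 and 473 TPM (log2 difference of -1.61 ± 0.16 (SE), adjusted p = 0.000389). *Irf8*, a factor of both B cells and myeloid cells, stood at 84.8 and 85.1 TPM against 228 and 209 TPM (log2 difference of -1.36 ± 0.09 (SE), adjusted p = 3.25e-05).

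These 4 factors and *Lef1*, a partner of β-catenin (181 and 207 TPM against 421 and 433 TPM, log2 difference -1.14), kept their call without any 1 of the 4 libraries. The remaining lower factors were *Tcf3*, *Spib*, *Irf4* and *Foxo1*, with log2 differences from -0.997 to -0.41. *Ebf1*, the factor upstream of *Pax5*, was at 293 and 313 TPM against 297 and 378 TPM, with overlapping samples (-0.15, adjusted p = 0.616). The group had 8 lower calls without ∆CRD2/- replicate 1, and *Pax5* was then not called.

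**Figure D3:**
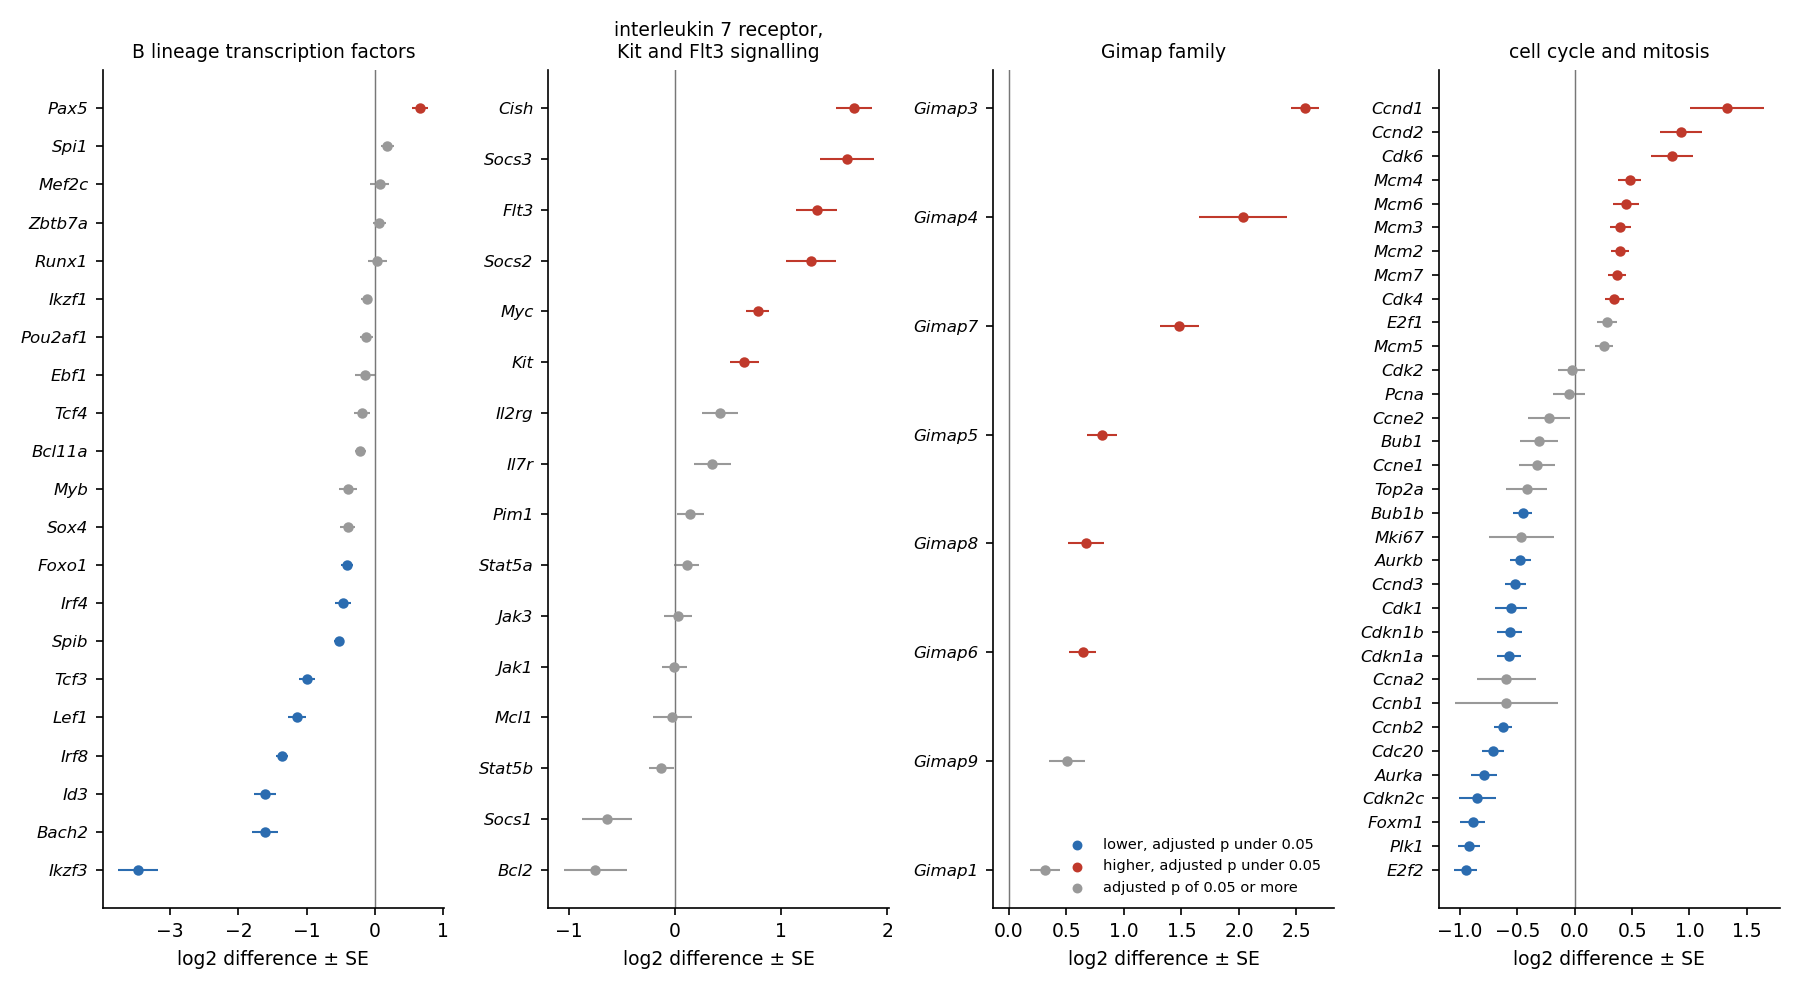
Log2 difference ± SE between ∆CRD1/- and ∆CRD2/- cells for each tested gene of 4 groups, with values to the left of 0 lower and values to the right higher in ∆CRD1/- cells. Called B lineage transcription factors lie left of 0 except Pax5, called cytokine signalling and Gimap genes lie right of 0, and called cell cycle genes lie on both sides.

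Interleukin-7 and the ligands of *Kit* and *Flt3* signal through receptors that sustain early lymphoid progenitors. Of 16 genes of this signalling, 10 were not called, 6 (37.5%, against 2.72% of all genes) were higher and 0 lower in ∆CRD1/- cells (median 0.25), with 2 lower at an unadjusted p under 0.05, 0 by edgeR and 1 by DESeq2. *Cish*, a STAT5-induced inhibitor of cytokine signalling, stood at 46.5 and 39.8 TPM against 14.7 and 12.03 TPM (log2 difference of 1.69 ± 0.17 (SE), adjusted p = 0.000469). Its relatives *Socs3* (11.1 and 11.1 TPM against 4.62 and 2.695 TPM, 1.62, adjusted p = 0.00428) and *Socs2* (38.4 and 38.6 TPM against 20.1 and 12.3 TPM, 1.28, adjusted p = 0.00917) were also higher. For *Socs3*, both ∆CRD2/- samples lay below the 15.6 and 12.4 TPM of *Pax5* +/+ cells, and the ∆CRD1/- samples lay closer to them.

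*Flt3*, the receptor of early progenitors that *Pax5* represses, stood at 77.8 and 69.9 TPM against 31.6 and 26.9 TPM (log2 difference of 1.34 ± 0.20 (SE), adjusted p = 0.00309), with 15.7 and 21.2 TPM in *Pax5* +/+ and 250.4 and 188 TPM in ∆CRD1,2/- cells. *Kit* stood at 98.7 and 109 TPM against 56.8 and 76.7 TPM (log2 difference of 0.65 ± 0.14 (SE), adjusted p = 0.0183), and *Myc*, the sixth gene, had a log2 difference of 0.78. *Il7r* itself was at 374 and 355 TPM against 267 and 306 TPM (0.35, adjusted p = 0.276). *Cish* kept its call without any 1 of the 4 libraries. The calls of *Socs3* and *Flt3* were lost without ∆CRD1/- replicate 1 (adjusted p = 0.0541 and 0.0514), that of *Kit* without ∆CRD2/- replicate 1 (log2 difference 0.44, adjusted p = 0.0794) or either ∆CRD1/- sample, and that of *Socs2* without either ∆CRD1/- sample or ∆CRD2/- replicate 2, with adjusted p values up to 0.13 and 0.0892.

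All 8 genes of the Gimap family, small GTPases of lymphocytes whose genes lie together on chromosome 6, had positive log2 differences (0.31 to 2.57, median 0.74), and 6 (75%, against 2.72% of all genes) were called higher in ∆CRD1/- cells. *Gimap4* stood at 659 and 592 TPM against 159.7 and 145 TPM (log2 difference of 2.04 ± 0.38 (SE), adjusted p = 0.0106), and *Gimap7* at 116 and 106 TPM against 38.01 and 40.96 TPM (log2 difference of 1.48 ± 0.17 (SE), adjusted p = 0.000845). *Gimap5*, by contrast, differed less than 2-fold, at 66.4 and 68.7 TPM against 35.5 and 41.98 TPM (0.81, adjusted p = 0.00493). In none of these genes did the genotypes overlap. The family is related in sequence, so reads may be shared between members. *Gimap3* and *Gimap7* kept their call in every leave-out, *Gimap5* lost it without ∆CRD1/- replicate 1 (adjusted p = 0.0508), and *Gimap4* lost it without any 1 of the 4 libraries (adjusted p = 0.0529 to 0.114). In the fit without ∆CRD2/- replicate 1, 4 of 8 were called.

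Among 14 genes of the Ly6 family and other progenitor surface markers, 3 (21.4%) were higher and 1 (7.14%) was lower (median 0.05). *Ly6a*, the stem and progenitor antigen Sca-1, stood at 269 and 208 TPM against 68.3 and 43.6 TPM (log2 difference of 2.12 ± 0.28 (SE), adjusted p = 0.00182). *Ly6d*, the marker of B-lineage-primed progenitors, stood at 1908 and 1955 TPM against 692 and 891 TPM (log2 difference of 1.30 ± 0.14 (SE), adjusted p = 0.000541), with 298 and 239 TPM in *Pax5* +/+ and 3327 and 2790.2 TPM in ∆CRD1,2/- cells. The ∆CRD1,2/- cells were sorted as positive for Ly6D, so gate and genotype cannot be told apart in their level.

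The lower gene was *Cd44*, a hyaluronan receptor, at 7.08 and 7.98 TPM against 28.7 and 23.7 TPM (log2 difference of -1.78 ± 0.20 (SE), adjusted p = 0.000714), with 27.1 and 37.3 TPM in *Pax5* +/+ cells. It also belongs to the 18 genes of adhesion and migration, of which 2 (11.1%) were lower and 1 (5.56%) was higher (median -0.31). The other lower one, the selectin ligand *Selplg*, stood at 175 and 189.6 TPM against 235 and 276 TPM (log2 difference -0.48) and lost its call without either ∆CRD1/- sample or ∆CRD2/- replicate 2 (adjusted p up to 0.212). With the samples centred on their medians, 1 gene of this list was lower in place of 2.

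Of 13 V(D)J recombination genes, 2 (15.4%) were lower and 1 (7.69%) was higher (median -0.16). *Polm*, the DNA polymerase mu that fills gaps during end joining, was close to absent in ∆CRD1/- cells, at 0.253 and 0.1002 TPM against 4.84 and 4.89 TPM (log2 difference of -4.22 ± 0.36 (SE), adjusted p = 0.000176), and kept its call in every leave-out. Its mean in ∆CRD2/- cells was just under the 5 TPM of the thresholds. *Xrcc6*, the Ku70 subunit, differed by -0.43 (655 and 656 TPM against 796 and 976 TPM), and *Prkdc*, the DNA-dependent protein kinase, by 0.87 (14.8 and 11.1 TPM against 7.38 and 6.599 TPM). The last 2 lost their call in 3 of 4 leave-outs (adjusted p up to 0.18 and 0.233), *Prkdc* also without ∆CRD2/- replicate 1 (0.0649). *Rag1* stood at 544 and 489 TPM against 605 and 653 TPM (-0.29, adjusted p = 0.262).

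Cell cycle genes were called in both directions. Of 33 genes, 13 (39.4%, against 5.22% of all genes) were lower and 9 (27.3%, against 2.72%) higher in ∆CRD1/- cells (median -0.42). The lower genes were mostly of mitosis, such as the kinase *Plk1* at 115 and 135 TPM against 238 and 234 TPM (log2 difference of -0.92 ± 0.10 (SE), adjusted p = 0.000565), together with *Aurka*, *Aurkb*, *Bub1b*, *Ccnb2*, *Cdc20*, *Cdk1* and *Foxm1*, and the transcription factor *E2f2*, at 112 and 128 TPM against 238 and 226 TPM (log2 difference of -0.95 ± 0.10 (SE), adjusted p = 0.000539). The cell cycle inhibitors *Cdkn1a*, *Cdkn1b* and *Cdkn2c* and the cyclin *Ccnd3* were lower as well, with log2 differences from -0.85 to -0.52.

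The higher genes were 5 members of the MCM helicase that licenses DNA replication (*Mcm2*, *Mcm3*, *Mcm4*, *Mcm6* and *Mcm7*, 0.37 to 0.48) and the G1 regulators *Cdk4*, *Cdk6*, *Ccnd1* and *Ccnd2*. *Ccnd2*, cyclin D2, stood at 224 and 195 TPM against 96.7 and 125 TPM (log2 difference of 0.93 ± 0.18 (SE), adjusted p = 0.0127), and *Ccnd1* at 25.9 and 16.2 TPM against 9.33 and 7.01 TPM (log2 difference of 1.33 ± 0.32 (SE), adjusted p = 0.0334). *Plk1* and *E2f2* kept their call in every leave-out. *Ccnd2* lost it in 3 of 4 and *Ccnd1* in all 4 (adjusted p = 0.0846 and 0.0713 without ∆CRD2/- replicate 1), and without ∆CRD2/- replicate 1 the group had 5 higher and 11 lower calls. With median-centred samples, 7 rather than 9 genes were higher.

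Of 23 listed genes of the T lineage, 13 passed the 1 TPM limit, of which 3 (23.1%) were lower and 1 (7.69%) was higher (median 0.02). *Zap70*, the T cell receptor kinase, stood at 1.47 and 3.31 TPM against 13.4 and 9.48 TPM (log2 difference of -2.30 ± 0.38 (SE), adjusted p = 0.0053), and lost its call without ∆CRD1/- replicate 1 (adjusted p = 0.0561). *Dtx1*, a regulator of Notch signalling, stood at 0.577 and 0.513 TPM against 2.87 and 2.81 TPM, and *Cd5*, an inhibitory receptor, at 4.15 and 3.97 TPM against 8.75 and 6.85 TPM. Both lost their call in every leave-out (adjusted p up to 0.0888 and 0.186, and 0.0617 and 0.164 without ∆CRD2/- replicate 1). The higher gene was *Tcf7*, which encodes TCF1, at 92.4 and 108 TPM against 44.5 and 57.1 TPM (log2 difference of 0.98 ± 0.13 (SE), adjusted p = 0.00201), and it kept its call in every leave-out. Of 4 T cell markers and 3 NK cell markers, limma called 0, 0 had an unadjusted p under 0.05, and edgeR and DESeq2 also called 0. *Lck* stood at 137 and 155 TPM against 112 and 136 TPM, *Lat* at 81.9 and 87.4 TPM against 89.2 and 106 TPM, *Klrb1c* at 17.7 and 16.9 TPM against 16.3 and 13.7 TPM and *Nkg7* at 14.1 and 11.98 TPM against 27.7 and 8.94 TPM, and of these 4 genes the samples of *Nkg7* overlapped between genotypes.

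All 10 genes of MHC class II presentation had negative log2 differences (-3.05 to -0.08, median -0.73), and 5 (50%, against 5.22% of all genes) were called lower in ∆CRD1/- cells. *H2-Aa* and *H2-Eb1*, chains of the class II molecules, stood at 1.77 and 2.34 TPM and 1.02 and 1.23 TPM in ∆CRD1/- cells, against 28.8 and 10.7 TPM and 12.4 and 4.53 TPM in ∆CRD2/- cells, with the higher value of each in the library high in granulocyte markers. Without it, the log2 differences of *H2-Aa* and *H2-Eb1* were -2.33 and -1.93, with adjusted p = 0.0965 and 0.123. Both also lost their call without either ∆CRD1/- sample, with adjusted p up to 0.146 and 0.175. The class II transactivator *Ciita* stood at 0.259 and 0.281 TPM against 1.38 and 1.22 TPM (log2 difference of -1.92 ± 0.38 (SE), adjusted p = 0.0128), and *H2-Ob*, of the accessory molecule H2-O, at 72.1 and 72.8 TPM against 106 and 144 TPM (log2 difference of -0.77 ± 0.15 (SE), adjusted p = 0.0116). Only 3 of 10 were called without ∆CRD2/- replicate 1. *Ciita* lost its call without ∆CRD1/- replicate 1 (adjusted p = 0.0783) and *H2-Ob* in 3 of 4 leave-outs (up to 0.105).

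Of 5 tested markers of pre-B and later B cells, 3 (60%) were lower and 0 higher in ∆CRD1/- cells (median -1.57). The largest log2 difference upward was 0.78, with 1 marker higher at an unadjusted p under 0.05, 0 by edgeR and 1 by DESeq2. *Cd2* was at 0 in both ∆CRD1/- samples and at 1.11 and 0.648 TPM in ∆CRD2/- cells, from 16 and 10 reads, and was thus at least 9.09-fold lower. *Ms4a1*, which encodes CD20, stood at 0.397 and 0.689 TPM against 3.27 and 4.26 TPM (log2 difference of -2.61 ± 0.60 (SE), adjusted p = 0.0261), and *Cd22*, an inhibitory coreceptor, at 19.7 and 21.8 TPM against 29.99 and 39.6 TPM (log2 difference of -0.73 ± 0.17 (SE), adjusted p = 0.0282). All 3 calls depended on single libraries, with adjusted p values up to 0.181, 0.224 and 0.221 in the leave-outs. In the fit without ∆CRD2/- replicate 1, 1 of these markers was called lower, *Ms4a1* had an adjusted p = 0.0818, and *Cd2* was below the 1 TPM limit.

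Interferon-stimulated and immediate-early genes, where called, were lower in ∆CRD1/- cells. Of 21 interferon-stimulated genes, 5 (23.8%, against 5.22% of all genes) were lower and 0 higher in ∆CRD1/- cells (median -0.46), with 1 higher at an unadjusted p under 0.05 and 0 by edgeR and by DESeq2. *Usp18*, a negative regulator of interferon signalling, stood at 15.8 and 20.4 TPM against 33.5 and 35.3 TPM (log2 difference of -0.93 ± 0.15 (SE), adjusted p = 0.00414) and kept its call in every leave-out. *Zbp1*, a nucleic acid sensor, stood at 5.30 and 10.5 TPM against 19.7 and 22.5 TPM (-1.48) and *Mx1* at 1.19 and 1.28 TPM against 3.96 and 4.29 TPM (-1.66). Both lost their call in 1 or more leave-outs (adjusted p up to 0.0666 and 0.172, with 0.0835 for *Mx1* without ∆CRD2/- replicate 1), and without ∆CRD2/- replicate 1 the list had 2 calls.

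Immediate-early genes are named for a fast response to receptor signals, and whether each listed gene responds that way in these cells was not tested. Of 18 genes on this list, 6 (33.3%, against 5.22% of all genes) were lower and 0 higher in limma (median -0.38). At an unadjusted p under 0.05, 3 were higher in limma, and edgeR and DESeq2 called 0 and 1 higher. *Klf2*, a factor of lymphocyte quiescence and trafficking, stood at 3.01 and 2.42 TPM against 12.2 and 12.3 TPM (log2 difference of -2.14 ± 0.35 (SE), adjusted p = 0.00568) and lost its call without either ∆CRD1/- sample (adjusted p = 0.0506 without replicate 1). *Egr1* stood at 11.6 and 10.6 TPM against 17.7 and 26.96 TPM (-0.97), *Egr3* at 0.498 and 0.567 TPM against 2.01 and 1.87 TPM (-1.69) and *Nr4a1* at 6.18 and 6.27 TPM against 9.93 and 11.3 TPM (-0.76). *Egr3* and *Nr4a1* lost their call in all 4 leave-outs (adjusted p = 0.061 and 0.0588 without ∆CRD2/- replicate 1) and *Egr1* in 3, and without ∆CRD2/- replicate 1 the list had 3 calls.

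Of 35 tested genes of chromatin complexes that bind *Pax5*, 2 (5.71%) were called, a share near the 7.94% over all genes tested (median -0.07). *Smarca4*, the ATPase of the BAF remodeling complex, stood at 1018 and 1169 TPM against 1691 and 2237 TPM (log2 difference of -0.83 ± 0.15 (SE), adjusted p = 0.00779) and lost its call without ∆CRD1/- replicate 1 or ∆CRD2/- replicate 2 (adjusted p up to 0.105). *Ash2l*, of the MLL methyltransferase complexes, stood at 102 and 103 TPM against 81.8 and 82.5 TPM (0.32), called in no leave-out (adjusted p = 0.0853 without ∆CRD2/- replicate 1). Of 5 Groucho corepressors, *Tle3* (130.1 and 129 TPM against 182 and 205 TPM, -0.58) and *Aes* (209 and 215 TPM against 315 and 352 TPM, -0.65) were lower, both in every leave-out. Earlier work cited by the study found that Grg4 (Tle4), a member of this family, binds both the octapeptide and the CRD1 region of *Pax5*.

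Metabolic, survival and clock genes were called at 6.25% to 16.7% of the members of each group, against 7.94% of all genes tested. Of 16 genes of the *Bcl2* family and cell death, only *Bcl2l1*, which encodes the survival protein Bcl-xL, was called (57.5 and 65.02 TPM against 89.9 and 102 TPM, log2 difference of -0.65 ± 0.13 (SE), adjusted p = 0.0141). Of 18 genes of glucose uptake and glycolysis, *Hk1* was lower (66.8 and 77.6 TPM against 91.96 and 112 TPM, -0.50) and *Tpi1* higher (459 and 421 TPM against 351 and 327 TPM, 0.38). Of 12 clock genes, *Arntl*, which encodes BMAL1, was lower in every leave-out (96.3 and 111 TPM against 246 and 196 TPM, log2 difference of -1.08 ± 0.12 (SE), adjusted p = 0.000799), and *Bhlhe40* was lower at 0.0950 and 0.235 TPM against 2.03 and 0.762 TPM. *Bcl2l1*, *Hk1*, *Tpi1* and *Bhlhe40* lost their call in 2 or more leave-outs (adjusted p up to 0.153, 0.24, 0.189 and 0.262), and *Bhlhe40* was below the 1 TPM limit without ∆CRD2/- replicate 1.

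Among markers of the remaining cell types, *Irf8* was the only one of 5 plasmacytoid dendritic cell markers called, and *Siglech*, the defining one, stood at 0 and 0.148 TPM in ∆CRD1/- cells and 6.37 and 0.269 TPM in ∆CRD2/- cells. *Sdc1* was the only one of 4 plasma cell markers (20.8 and 22.5 TPM against 29.2 and 33.4 TPM, -0.53) and lost its call in every leave-out (adjusted p = 0.0522 without ∆CRD2/- replicate 1). Of 4 megakaryocyte markers limma called 0, 1 had an unadjusted p under 0.05, and edgeR and DESeq2 called 1 each. *Pf4* stood at 1.01 and 5.61 TPM against 9.68 and 4.79 TPM and *Gp9* at 4.64 and 4.34 TPM against 4.598 and 2.79 TPM. The erythroid gene *Alas2* stood at 64.2 and 74.1 TPM against 175 and 116 TPM and *Slc4a1* at 33.1 and 36.5 TPM against 55.8 and 78.1 TPM, higher in both ∆CRD2/- samples but without a call (adjusted p = 0.117 and 0.273).

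The next lists, 5 in all, followed gene groups that the study itself formed from these samples, so their directions are not independent evidence. All 9 genes listed as activated through CRD1 were lower in ∆CRD1/- cells and past the thresholds (median -3.62), and all 8 listed as repressed through CRD1 were higher, 7 of them past the thresholds (median 1.74). Among the latter, *Trem1*, an activating receptor of myeloid cells, stood at 60 and 45.3 TPM against 15.5 and 14.2 TPM (log2 difference of 1.80 ± 0.23 (SE), adjusted p = 0.00161), and *Pnp2*, a purine nucleoside phosphorylase, at 83.7 and 66.5 TPM against 24.1 and 19.2 TPM (log2 difference of 1.79 ± 0.36 (SE), adjusted p = 0.0149). *Pnp2* is a near copy of a neighbouring gene and lost its call in every leave-out (adjusted p up to 0.165, and 0.0547 without ∆CRD2/- replicate 1). Of these 8, 5 were called without ∆CRD2/- replicate 1.

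All 8 genes listed as graded, with stronger loss when both regions were missing, were lower in ∆CRD1/- cells by 0.65 to 1.14 on the log2 scale (median -1.002), none past the 3-fold threshold. They held *Lef1*, *Arntl* and the surface receptor *Slamf7* (93.8 and 89.2 TPM against 184 and 184 TPM, -1.01). Of 9 genes listed as derepressed on loss of both regions, 2 were higher and 0 lower (median 0.92): the adaptor *Grap2* (32.8 and 31.0 TPM against 12.9 and 11.9 TPM, log2 difference of 1.36 ± 0.17 (SE), adjusted p = 0.00115) and the sulfatase *Sulf2* (23.2 and 22.6 TPM against 10.1 and 13.3 TPM, log2 difference of 0.97 ± 0.17 (SE), adjusted p = 0.0079). None of the 9 was lower at an unadjusted p under 0.05 or by edgeR or DESeq2. *Sulf2* lost its call without either ∆CRD1/- sample (adjusted p up to 0.0843).

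The list of 9 genes that the study grouped as needing CRD1 and CRD2 alike mixes 5 that stood higher and 4 that stood lower in *Pax5* +/+ cells than in either mutant genotype. Of the former, 4 were lower in ∆CRD1/- than in ∆CRD2/- cells, each in every leave-out, and *Slc52a3* was not called. Of the latter, 1, *Eef1akmt1*, was higher in ∆CRD1/- cells, and *Cgas*, *Hnrnpll* and *Ell3* were not called. *Tmem132e*, a transmembrane protein, stood at 3.198 and 3.27 TPM against 22.6 and 28.2 TPM (log2 difference of -2.93 ± 0.18 (SE), adjusted p = 1.88e-05), with 102 and 76.4 TPM in *Pax5* +/+ and 0.0155 and 0.0127 TPM in ∆CRD1,2/- cells. *Enpep*, the aminopeptidase known as BP-1, stood at 0.0703 and 0 TPM against 1.32 and 1.34 TPM (log2 difference of -3.45 ± 0.36 (SE), adjusted p = 0.000496), with 25.5 and 29.7 TPM in *Pax5* +/+ cells. *Cldn4*, a tight junction protein, stood at 0.163 and 0.364 TPM against 2.71 and 3.93 TPM (log2 difference of -3.27 ± 0.40 (SE), adjusted p = 0.00115), and *Grb7* followed the same order. In these 4 genes all ∆CRD2/- samples lay below both *Pax5* +/+ samples, and all ∆CRD1/- samples lay below the ∆CRD2/- samples.

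Set against *Pax5* +/+ pro-B cells of the same read length, which both genotypes share as reference, ∆CRD2/- cells were the nearer genotype for 74 of the 76 lower genes and 32 of the 33 higher genes, and for 65.9% of all genes tested. The median log2 difference from *Pax5* +/+ over the 76 lower genes was -2.64 in ∆CRD1/- and -0.35 in ∆CRD2/- cells. Over the 33 higher genes it was 2.81 in ∆CRD1/- and 0.93 in ∆CRD2/- cells. The mean of ∆CRD2/- cells lay between those of wild-type and ∆CRD1/- cells for 54 of the 76 lower genes and 26 of the 33 higher genes. It lay on the opposite side of wild type from ∆CRD1/- cells for 21 and 6. Most of these positions rest on differences between ∆CRD2/- and wild-type cells that limma did not call. ∆CRD2/- cells were called below wild type, on the side of ∆CRD1/- cells, for 8 of the 76 lower genes. They were called above it, again on that side, for 8 of the 33 higher genes. They were called above wild type for 1 of the 76, *Rgs10*, and below it for 1 of the 33, *Socs3*. For *Rgs10* and *Socs3* the mean of ∆CRD1/- cells lay on the same side of wild type but nearer to it. ∆CRD1/- cells were called below wild type for 73 of the 76 and above it for 32 of the 33. The share of each position over all genes tested was not computed.

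One lower gene, *Rgs10*, a regulator of G protein signalling picked out after its values were seen, was instead called above wild type in ∆CRD2/- cells. It stood at 129 and 167 TPM there, against 21.5 and 25.4 TPM in *Pax5* +/+ and 39.1 and 43.6 TPM in ∆CRD1/- cells (log2 difference of -1.83 ± 0.14 (SE), adjusted p = 8.76e-05). ∆CRD2/- cells were thus the genotype further from wild type for this gene, and the genotypes did not overlap.

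In ∆CRD1,2/- cells, which lack both regions and were sorted through another gate, the median log2 difference from *Pax5* +/+ was -3.30 over the 76 lower and 3.28 over the 33 higher genes. Their mean was below that of ∆CRD1/- cells for 53 of the 76 lower genes and above it for 18 of the 33 higher genes. The shares over all genes tested were not computed. *Fcrla*, for example, stood at 3.25 and 1.94 TPM in ∆CRD1,2/- cells and 7.79 and 6.79 TPM in ∆CRD1/- cells, and *Plxdc1* at 1.89 and 2.98 TPM and 6.31 and 8.75 TPM. *H19* went the other way, at 15.5 and 16.1 TPM in ∆CRD1,2/- and 78.1 and 61.9 TPM in ∆CRD1/- cells, as did *Gimap3* at 149 and 192 TPM and 303 and 288 TPM. The gate and the genotype cannot be told apart in these values.

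**Figure D4:**
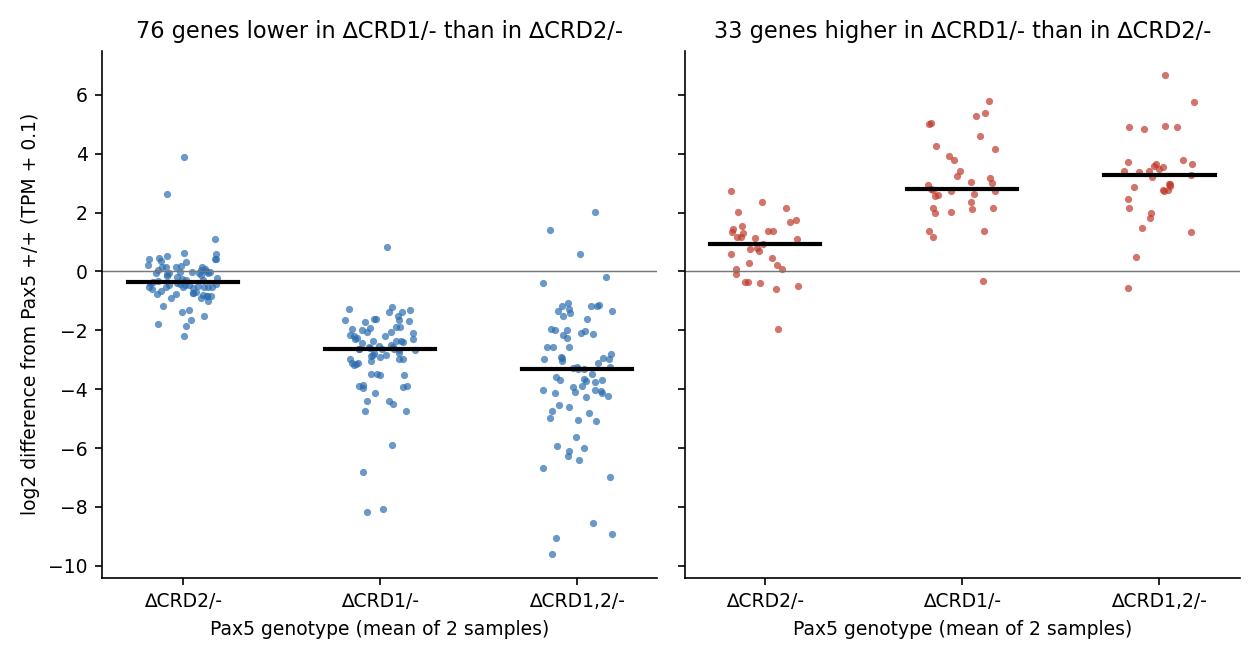
Log2 difference from Pax5 +/+ pro-B cells (y axis) of the 76 lower and the 33 higher genes in ∆CRD2/-, ∆CRD1/- and ∆CRD1,2/- cells, 1 point per gene, with black bars at the medians. The medians are -0.35, -2.64 and -3.30 for the lower genes and 0.93, 2.81 and 3.28 for the higher genes.

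Progenitors without *Pax5* were compared with *Pax5* +/+ pro-B cells of 50-nt reads, which were not used above. In this comparison 3.36% of 13338 tested genes were past the same thresholds and lower in Pax5-deficient cells, and 3.92% were past them and higher. Of the 76 genes lower in ∆CRD1/- than ∆CRD2/- cells, 50 were past the thresholds and lower in Pax5-deficient cells and 2 were past them and higher (median log2 difference -2.71). Of the 33 higher genes, 26 were past the thresholds and higher (median 3.04). *Grb7*, *Heyl* and *Pde9a* had log2 differences of -6.59, -9.65 and -8.20 there, and *Ehd3* and *Ly6a* of 5.86 and 4.24. The genotypes also differ in sorting gate and in stage of development, which cannot be told apart from the loss of *Pax5*. *H2-Aa* and *Zap70*, lower in ∆CRD1/- cells, stood at 0.41 and 0.09 in this comparison.

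The same pair of deletions was also measured in homozygous cells, in samples not used for the hemizygous contrast. Read length was confounded with genotype there, with 50-nt reads for *Pax5* ∆CRD1/∆CRD1 and 100-nt reads for *Pax5* ∆CRD2/∆CRD2 cells, and a term for it was carried by *Pax5* +/+ samples of both lengths. Of 12878 genes tested, 78 (0.606%) had an adjusted p under 0.05, and 55 (0.427%) were past the thresholds, 44 lower and 11 higher in ∆CRD1/∆CRD1 cells. Of the genes past the thresholds in hemizygous cells, 71 of the 76 lower and 31 of the 32 higher genes that could be tested had the same direction in homozygous cells, beside 67.2% of all 12325 genes tested in both. Their medians were -1.67 in homozygous and -2.18 in hemizygous cells for the lower genes, and 1.84 and 2.10 for the higher genes. The genes were chosen on their hemizygous difference, which by itself favours larger values there. Of these lower and higher genes, 30 and 7 had an adjusted p under 0.05 in homozygous cells.

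In the other direction, 53 of the 55 homozygous genes were tested in hemizygous cells, all 53 had the same direction there, and 50 had an adjusted p under 0.05. In the homozygous comparison *Grb7* stood at 2.28 and 2.24 TPM in ∆CRD1/∆CRD1 and 86.8 and 78.8 TPM in ∆CRD2/∆CRD2 cells (log2 difference -4.87, adjusted p = 0.000137). *Fcrla* stood at 24.1 and 18.7 TPM against 99.9 and 128 TPM (-3.17, adjusted p = 0.0116), *Heyl* at 7.504 and 7.42 TPM against 58.8 and 51.97 TPM (-2.74, adjusted p = 0.00264), and *Ehd3* at 59.4 and 58.8 TPM against 6.35 and 7.03 TPM (3.11, adjusted p = 0.00643). *Ly6a* stood at 164 and 149 TPM against 28.6 and 31.2 TPM (3.55, adjusted p = 0.000661). The genotypes did not overlap at any of these 5 genes.

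Several genes called in hemizygous cells were not called in homozygous cells. *Ikzf3*, with 16.5 and 11.6 TPM against 22.5 and 41.5 TPM, had a log2 difference of -2.61 and an adjusted p = 0.0589, *Id3* had -1.24 and 0.147, and *Socs3* had 0.47 and 0.683. *Pax5* mRNA had a log2 difference of 0.14 (adjusted p = 0.759), and *Anxa3*, the gene dependent on ∆CRD2/- replicate 1, had 0.09 (0.987). The homozygous count was 10 without ∆CRD1/∆CRD1 replicate 1, 9 without its replicate 2, 30 without ∆CRD2/∆CRD2 replicate 1 and 77 without its replicate 2. The test of the difference between the hemizygous and homozygous contrasts gave 0 of 13128 genes at an adjusted p under 0.05 in limma, with 448 at an unadjusted p under 0.05, and no count test was run on it.

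**Figure D5:**
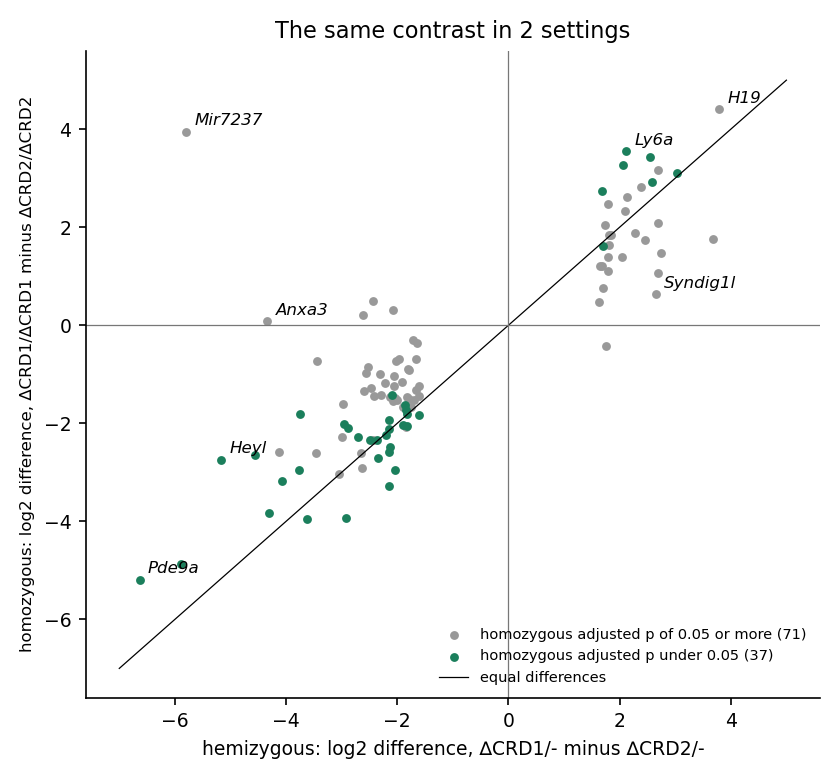
Log2 difference between the CRD1 and CRD2 deletions in hemizygous cells (x axis) and homozygous cells (y axis) for the 108 genes past the hemizygous thresholds that were tested in both. Green points are the 37 genes with an adjusted p under 0.05 in homozygous cells, grey points the other 71, and the line marks equal differences, with most points nearer to 0 on the homozygous axis. The genes were chosen on the hemizygous difference, which by itself favours larger values on that axis.

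Some of the 109 genes were neighbours in the genome. With gaps of at most 200000 bases, 21 of them formed 10 groups, and within each group all genes had the same direction. *Grb7* and *Ikzf3* lie at chr11:98446394-98546031, *Fcrla* and *Fcgr2b*, the inhibitory Fc receptor, at chr1:170917576-170976547, and *Gimap3* and *Gimap4* at chr6:48684549-48770851, where all 6 tested genes of the interval had positive log2 differences. The only group of 3 held *Tmprss3*, *Rsph1* and *Pde9a* at chr17:31179265-31476310. The other 2 tested genes of that interval, *Ubash3a* and *Slc37a1*, had log2 differences of -1.44 and -0.81. The membership of these groups was chosen from the values, so it is given as a description.

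The 3-fold threshold itself separated genes that barely differed. Just inside it were the Cdc42 effector *Cdc42ep4* (3.03-fold), *Id3* (3.05-fold), *Bach2* (3.05-fold) and *Socs3* (3.08-fold). Just outside were Mira (2.98-fold), Mturn (2.98-fold), Atp8b4 (2.98-fold) and Apoe (2.98-fold), of which Atp8b4 was higher and the other 3 were lower in ∆CRD1/- cells.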

How the data were processed

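Pro-B cells were profiled by poly(A) RNA-sequencing. Per the study's methods, the authors trimmed reads to 50 bases, aligned them with STAR 2.4.2a to GRCm38/mm10, counted them per RefSeq gene and deposited TPM values per sample. The authors deposited raw read counts in addition for a few samples, and these gave the gene lengths from which whole reads were recovered from TPM (tolerance 0.001, 100% of values whole) for 12453 of the 12566 tested genes. Depth was 30435592 to 33309666 reads in the 4 samples compared. PCR duplicates were not marked by molecular identifiers, so limits from a count of 0 cover the counting error of the 0 only. They take the reads of the other genotype as exact.

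The main test was limma 3.58.1 in R 4.3.3 on log2(TPM + 0.1), with trend, over 12 samples of 100-nt reads and the pro-B cell gate (*Pax5* +/+ replicates 3 and 4, ∆OP, ∆HD and ∆OP,HD homozygotes, ∆CRD1/- and ∆CRD2/-), with Benjamini-Hochberg adjustment over genes above 1 TPM in at least 1 of the 4 libraries. A fold change on this scale understates that of low genes. "Called" means an adjusted p under 0.05. The homozygous test used 9 samples with a read-length term, and read lengths came from the study's supplement. edgeR 4.0.16 (quasi-likelihood) and DESeq2 1.42.0 were run on recovered reads as alternatives, and scripts were tested on simulated data. The tests between the hemizygous and homozygous contrasts and of Pax5-deficient cells, and 2 of the alternatives, were chosen after seeing the data.

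The text names the 12 largest differences in each direction past the thresholds, *Pax5*, and up to 4 called genes per list (or, where none was called, the 2 highest in mean TPM), and other genes only where a count or a group is spelled out, chosen after their values were seen. Some genes that this rule takes are not reported here. The comparison and the gene lists were chosen with earlier results of these data known. Shared replicate numbers did not pair the samples (correlation of deviations 0.02 over 9708 genes).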

Additional observations from a re-analysis of the deposited data

How the results depend on the processing

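The 109 genes past the thresholds numbered 92 to 163 under the other pseudocounts, filters, centring, eBayes settings, sample sets and count tests, and 117 with immunoglobulin, T cell receptor and histone genes kept. Leaving out 1 library gave 68 to 110, and no gene of the 109 changed direction in any of these fits. The 998 calls became 614 with only the 4 samples in the fit, 389 with 11 samples of the C-terminal experiment and a read-length term, 1735 with DESeq2 and 266 to 689 with 1 library left out. The first 2 of these settings leave the estimates as they were and change only the spread. The same settings gave *Pax5* 0.667 with adjusted p = 0.0514 and 0.0529, leaving out the 2 libraries high in granulocyte markers (chosen after seeing the data) gave 0.500 and lost its call, and leaving out 1 library gave 0.500 to 0.834. The replicate block, fitted without *Pax5* +/+ samples, gave 106 and 941 genes and 0.667 for *Pax5*, against 112 and 1267 genes without the block. The homozygous count of 55 was 42 to 74 under other settings and 9 to 77 with 1 library left out. Of 93 named genes other than *Pax5* that were called, 43 kept their call in every leave-out, and 17 kept it in none. Depth limits what can be said of *Mir7237*, *ccdc198* and *Cd2*, which rest on few reads.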
